A study of Mus musculus with 6 samples.

Results

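The PARP family and the E3 ligase Dtx3l were examined in N18-Fms prostate tumour cells with and without CSF-1. The 10 genes are Parp1, Parp2, Parp3, Parp8, Parp9, Parp10, Parp11, Parp12, Parp14 and Dtx3l, taken by their gene names on a mouse expression array, where 12 probes carry those names among 36163 genes in all. The rule finds their probes by name and uses no measured value, but the members were chosen with earlier results of these data known. Parp9, Parp10, Parp11, Parp12, Parp14 and Dtx3l were treated as interferon-type members, Parp1, Parp2 and Parp3 as DNA repair members, and Parp8 stood apart from both sets.

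PARP proteins are ADP-ribosyltransferases, which split NAD+ and attach its ADP-ribose part to proteins or nucleic acids. PARP1, PARP2 and PARP3 are switched on by broken DNA and build ADP-ribose marks or chains that bring in repair proteins, whereas most other members add a single unit, and several of those are known as interferon-stimulated genes with roles in antiviral defence. DTX3L is a Deltex-type ubiquitin E3 ligase that works as a complex with PARP9, and PARP14 carries macrodomains, folds that bind ADP-ribose.

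All groups consisted of N18-Fms cells, spelled N18-CFMS in the sample labels. N18 is 1 subclone of the C2H line, which derives from TRAMP mouse prostate tumour cells. It had been stably transfected with firefly luciferase and selected with neomycin. Every group, unstimulated cells included, carried murine c-fms from a retrovirus and had been sorted for CSF-1R at the cell surface. Cells grew in medium with fetal bovine serum and dihydrotestosterone and were left unstimulated (Control, whose treatment label reads vehicule) or received recombinant mouse CSF-1 at 100 ng/ml for 24 h or 48 h by the labels. Other stimulation times stand in the study's array methods, and the label times are used here. RNA came from separate experiments, and each of the 3 groups held 2 arrays, so p-values rest on a small spread estimate. An exact 2-sided permutation test of 2 against 2 arrays cannot go below 0.333, and testing was done by limma over all genes.

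The 6 one-colour arrays each gave 59305 non-control spots, of which 58.7 to 72.0% were well above background and 0 were saturated. Replicate arrays correlated across genes at 0.993 to 0.994. One 24 h array was on another slide than the other 5. Csf1r was strong on every array, at 4.88 to 5.34 on the log2 scale relative to the array's 75th percentile, and did not pass the test at either time. The cells carried Trp63, Krt5, Krt8 and Krt14 well above background on all 6 arrays, while the epithelial markers Cdh1 and Hoxb13 were above it on 0 arrays and Epcam on 1. Of 14 macrophage markers, 7 to 10 were well above background per array, with the summed linear signal (relative to the 75th percentile) at 40.7 to 45.2 in Control, 34.0 to 41.2 at 24 h and 27.3 to 36.6 at 48 h. Itgam alone gave 21.1 to 42.2 of that sum, and the other markers together gave 3.0 to 3.32 in Control, 7.9 to 7.91 at 24 h and 6.23 to 6.32 at 48 h. Itgam, Adgre1 (listed as Emr1), Ptprc, Marco, Cd14, Mertk and Mrc1 were well above background on all 6 arrays, and Spi1, Lyz2 and Cd163 on 0. Mrc1 rose by 4.27 and 3.56 on the log2 scale at 24 h and 48 h, Mertk by 1.27 and 1.34 and Cd14 by 0.87 and 0.69, and their part in the members' changes was not tested. In such bulk RNA, fewer cells of a type and less RNA per cell cannot be told apart.

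Upstream sequence was matched for 7 of the 10 members in RefSeq (GRCm38.p6), as the 250 bases before each gene start, and 3 kinds of motif were searched. These were the interferon-stimulated response element core, GAAA repeated after a gap of 2 free bases, and the GC box GGGCGG, both on either strand, and the gamma-activated site TTCNNNGAA, which is its own reverse complement. Of 32851 mouse upstream windows, 2.98%, 32.7% and 7.02% held them, in that order. The Parp11 window is shown because it was the one member window with both interferon-related motifs. It lies at chr6:127446590-127446839 on the plus strand, and its capitals mark the response element core, read on the minus strand from position -44 to -35 before the start, and the overlapping gamma-activated site from -37 to -29.
Parp11: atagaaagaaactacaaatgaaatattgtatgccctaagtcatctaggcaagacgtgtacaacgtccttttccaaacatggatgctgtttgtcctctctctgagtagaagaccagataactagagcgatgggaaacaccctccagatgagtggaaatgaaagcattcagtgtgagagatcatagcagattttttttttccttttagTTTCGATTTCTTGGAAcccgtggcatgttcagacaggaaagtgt
A second listed start of Parp11 had a GC box and neither of the other motifs.

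The Dtx3l window is shown as that of a member with a large rise and none of the 3 motifs, at chr16:35939028-35939277 on the minus strand. The Parp1 window, at chr1:180568641-180568890 on the plus strand, held 3 GC boxes, all as the reverse complement and marked in capitals. The Parp2 window, at chr14:50807666-50807915 on the plus strand, held 1.
Dtx3l: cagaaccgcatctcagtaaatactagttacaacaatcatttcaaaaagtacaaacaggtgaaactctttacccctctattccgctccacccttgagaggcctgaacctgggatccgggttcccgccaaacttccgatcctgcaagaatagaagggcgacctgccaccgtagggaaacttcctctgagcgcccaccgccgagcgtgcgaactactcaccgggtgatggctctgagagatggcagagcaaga
Parp1: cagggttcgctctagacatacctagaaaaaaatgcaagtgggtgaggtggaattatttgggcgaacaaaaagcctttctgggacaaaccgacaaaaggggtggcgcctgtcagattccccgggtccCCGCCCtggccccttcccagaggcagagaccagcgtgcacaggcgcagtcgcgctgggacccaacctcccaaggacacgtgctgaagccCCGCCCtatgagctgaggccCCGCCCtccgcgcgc
Parp2: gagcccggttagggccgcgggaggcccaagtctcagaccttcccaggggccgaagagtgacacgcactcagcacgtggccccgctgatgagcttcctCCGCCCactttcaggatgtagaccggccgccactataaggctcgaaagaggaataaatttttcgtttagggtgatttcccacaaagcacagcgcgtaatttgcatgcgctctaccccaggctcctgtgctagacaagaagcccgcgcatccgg
The Parp8 window held 2 GC boxes, and the Parp3 and Parp12 windows held none of the 3 motifs. Parp9, Parp10 and Parp14 were the members with no entry. In the RefSeq gene order of chromosome 16, Parp14, Dtx3l and Parp9 are direct neighbours among protein-coding genes, between Hspbap1 and Kpna1.

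The probes are 60-base oligos, placed by the array files on mm9. Dtx3l was read by 3 probes and every other member by 1. The probes of Parp1 (chr1:182530341-182530639, plus strand) and Parp2 (chr14:51439134-51439365, plus strand) span 299 and 232 bases of genome, more than their own length, so each joins pieces that lie apart in the genome, as does the Parp11 probe, which spans 11856. Those of Parp1 and Parp2 are shown with a Dtx3l probe (chr16:35932885-35932944, minus strand), in lower case because no part is marked.
Parp1 probe: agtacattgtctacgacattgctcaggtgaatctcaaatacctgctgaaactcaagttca
Parp2 probe: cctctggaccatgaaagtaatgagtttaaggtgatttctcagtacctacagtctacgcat
Dtx3l probe: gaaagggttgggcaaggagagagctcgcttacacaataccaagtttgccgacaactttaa

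CSF-1 was followed by a rise of interferon-type members and a fall of Parp1 and Parp2. Of the 9 members tested at 24 h, 5 rose (Parp9, Dtx3l, Parp10, Parp14 and Parp8) and 2 fell (Parp1 and Parp2), where 8.02% of the 24643 genes tested rose and 5.99% fell. At 48 h 7 rose, now with Parp11 and Parp3, and the same 2 fell, against 6.58% and 7.38% of all genes. The median log2 change of the 5 tested interferon-type members was 3.13 at 24 h and 3.85 at 48 h, beside 0.04 and -0.04 over all genes tested. Both comparisons use the same Control arrays. Since the members were chosen with earlier results of these data known, their shares and medians are a description. Parp12 was well above background on 1 of 6 arrays and was not tested. Parp14 passed the background filter only through the CSF-1 groups, so its place in these counts adds no support. Values below are log2 signals relative to each array's 75th percentile, given in replicate order, and changes are differences of group means with the standard error (SE) of the limma fit and its Benjamini-Hochberg adjusted p over all genes tested.

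**Figure D1:**
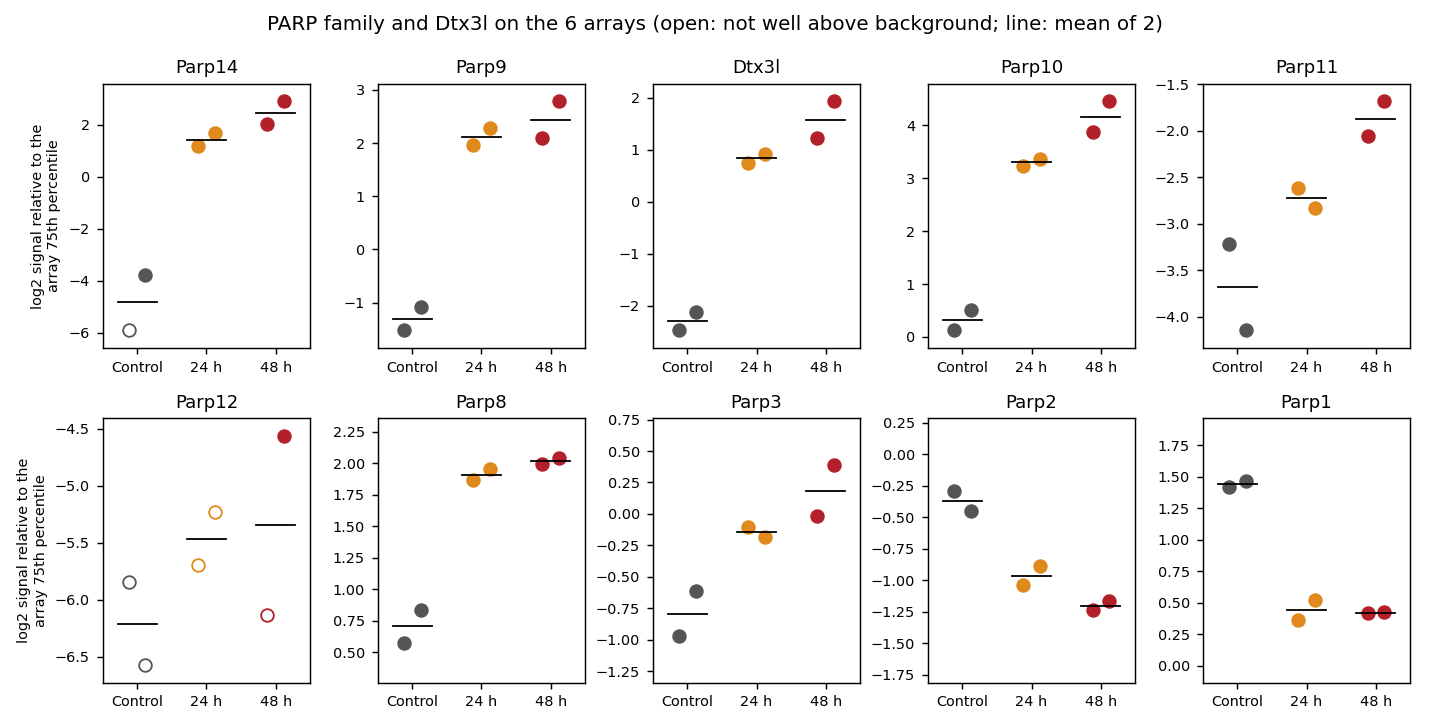
Each panel plots 1 gene on the 6 arrays, with log2 signal relative to the array's 75th percentile on the vertical axis (its own range in each panel) and the Control, 24 h and 48 h groups along the horizontal axis. Points are arrays, open where the probe was not well above background, and lines are means of 2 arrays. Parp14 runs from -5.91 in Control to 2.89 at 48 h, and Parp1 and Parp2 are lower on all 4 CSF-1 arrays than on either Control array.

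Parp9 was at -1.52 and -1.09 in Control, 1.96 and 2.29 at 24 h and 2.09 and 2.78 at 48 h. All 4 CSF-1 arrays were above both Control arrays, and the CSF-1 times overlapped. The log2 change was 3.43 (SE 0.29, adjusted p = 0.00406) at 24 h and 3.74 (SE 0.29, adjusted p = 0.00283) at 48 h, or 10.8-fold and 13.4-fold. PARP9 has little or no catalytic activity of its own and acts with DTX3L.

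Dtx3l, the partner ligase, was at -2.48 and -2.13 in Control, 0.74 and 0.92 at 24 h and 1.23 and 1.93 at 48 h by its brightest probe. No array of one group overlapped another group. It rose by 3.13 (SE 0.27, adjusted p = 0.0042) at 24 h and 3.88 (SE 0.27, adjusted p = 0.0021) at 48 h. Its other probes gave 2.60 and 3.19 for the one shown above. The third was not well above background on either Control array. Its Control readings were set at each array's lowest signal well above background, taken over all probes. The probe was then 3.22-fold higher at 24 h and 4.86-fold higher at 48 h, which are not strict lower bounds. With the dim readings as they stand, its log2 changes were 2.26 and 2.86 (limma adjusted p = 0.0171 and 0.0103 in a fit of every probe). It passed the filter only through the CSF-1 groups, so these p-values add no support. All 3 probes read higher at both times.

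Parp14, a macrodomain-bearing transferase, moved most among the members. It was at -5.91 and -3.77 in Control, 1.17 and 1.67 at 24 h and 2.02 and 2.89 at 48 h. The Control arrays differed by more than 2 log2 units and the first of them was not well above background, but both lay far below every CSF-1 array. The log2 change was 6.26 (SE 0.73, adjusted p = 0.00881) at 24 h and 7.29 (SE 0.73, adjusted p = 0.00578) at 48 h, computed with the dim reading as it stands. Parp14 passed the filter only through the CSF-1 groups, so its p-values add no support. Since 1 of the 2 Control arrays measured the probe, the dim one was also set at the lowest signal well above background there. This gave levels 51.3-fold and 105-fold higher. That lowest signal was taken over all probes, so these folds are not lower bounds for this gene. Without the first Control array the log2 changes were 5.19 and 6.22, and without the second 7.33 and 8.36. Background correction by normexp gave 3.94 and 4.98. The 24 h call was lost without the second 24 h array, at an adjusted p of 0.0523.

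Parp10, a mono-ADP-ribosyltransferase, was at 0.12 and 0.51 in Control, 3.24 and 3.37 at 24 h and 3.88 and 4.45 at 48 h. The groups were again separate from each other. The log2 change was 2.99 (SE 0.24, adjusted p = 0.00361) at 24 h and 3.85 (SE 0.24, adjusted p = 0.00168) at 48 h. Over the 6 arrays its profile was the one closest to that of Dtx3l among the members, at a root mean square distance of 0.074 log2 units once each gene's mean was removed, and Dtx3l and Parp9 were 0.187 apart.

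Parp11, another mono-ADP-ribosyltransferase and the member with the motif-bearing window, was dim. It read -3.22 and -4.15 in Control, -2.62 and -2.83 at 24 h and -2.06 and -1.69 at 48 h, with no overlap between groups. The difference at 24 h was 0.96 (SE 0.33, adjusted p = 0.116), which did not pass. At 48 h it rose by 1.81 (SE 0.33, adjusted p = 0.0264), a call lost whichever array was left out except the first Control array, with an adjusted p of up to 0.115. Without that array the 24 h difference was 1.43 (adjusted p = 0.0481). The 48 h rise was reduced to 0.94 by normexp with quantile normalization. Parp12, a zinc finger member, read -5.85 and -6.57 in Control, -5.70 and -5.23 at 24 h and -6.13 and -4.56 at 48 h. Its second 48 h array was the one that stood well above background, so no change was given.

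**Figure D2:**
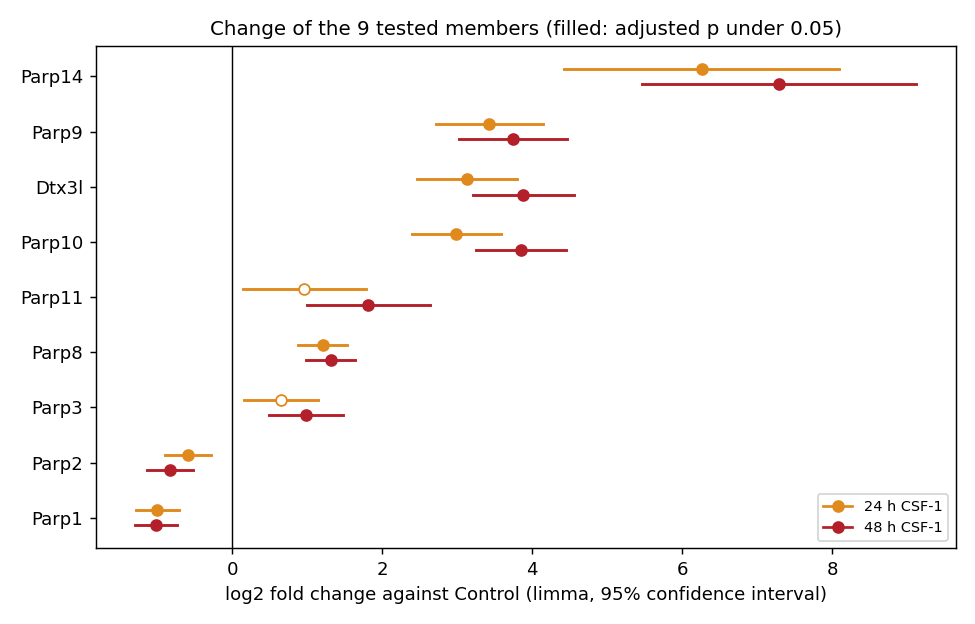
Log2 fold change against Control on the horizontal axis for the 9 tested members, one row per gene, at 24 h (orange) and 48 h (red). Points are limma estimates from 6 arrays, bars are 95% confidence intervals, and filled points have an adjusted p under 0.05. Parp14 has the widest intervals, 4.43 to 8.09 at 24 h and 5.46 to 9.12 at 48 h, and the Parp1 and Parp2 intervals lie below 0.

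Parp1, the main sensor of DNA strand breaks in the family, was at 1.42 and 1.46 in Control, 0.36 and 0.52 at 24 h and 0.42 and 0.42 at 48 h. Both times lay below Control and overlapped each other. Parp1 fell by 1.0 (SE 0.11, adjusted p = 0.00814) on the log2 scale at 24 h and by 1.02 (SE 0.11, adjusted p = 0.00743) at 48 h, 2.03-fold below the Control signal. Without the second Control array the 24 h adjusted p was 0.0512.

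Parp2, its closest relative in repair, was at -0.29 and -0.45 in Control, -1.04 and -0.89 at 24 h and -1.24 and -1.16 at 48 h. The groups did not overlap. Parp2 fell by 0.59 (SE 0.12, adjusted p = 0.0361) at 24 h and by 0.83 (SE 0.12, adjusted p = 0.0162) at 48 h. The 24 h call was lost whichever array was left out and the 48 h call without any 1 Control or 48 h array, with an adjusted p of up to 0.156 and 0.0834.

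Parp3, which acts on double-strand breaks, went the other way. It was at -0.97 and -0.61 in Control, -0.11 and -0.18 at 24 h and -0.02 and 0.39 at 48 h, every CSF-1 array above Control. Its difference was 0.65 (SE 0.20, adjusted p = 0.0878) at 24 h, and it rose by 0.98 (SE 0.20, adjusted p = 0.0331) at 48 h, which no fit that left out 1 array kept, with an adjusted p of up to 0.131. The DNA repair members therefore did not move as one set.

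Parp8, a mono-ADP-ribosyltransferase outside both sets, was at 0.58 and 0.84 in Control, 1.86 and 1.95 at 24 h and 1.99 and 2.04 at 48 h. The CSF-1 arrays lay above Control with a narrow spread. It rose by 1.20 (SE 0.13, adjusted p = 0.00756) at 24 h and 1.31 (SE 0.13, adjusted p = 0.00584) at 48 h and kept both calls in every fit that left out 1 array.

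For all 9 tested members the CSF-1 arrays did not overlap Control at either time. That is a weak measure here, since 31.3% of all genes were higher without overlap and 27.7% lower at 24 h, and 23.8% and 35.0% at 48 h. Within the slide that held 5 of the 6 arrays, the 24 h changes were 3.59 for Parp9, 3.23 for Dtx3l, 6.51 for Parp14, 3.06 for Parp10, 1.25 for Parp8, -0.92 for Parp1 and -0.52 for Parp2. That slide held a single 24 h array, which was assumed to vary like the other groups. Under that assumption each kept an adjusted p under 0.05 except Parp2, at 0.156. At 48 h on that slide Parp11 (adjusted p = 0.0525) and Parp3 (0.065) did not pass.

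Between 24 h and 48 h no member passed the test. limma called 0 of 24643 genes, with 3355 at an unadjusted p under 0.05. The tested interferon-type members read higher at 48 h by 0.32 for Parp9 to 1.03 for Parp14, with unadjusted p-values under 0.05 for Parp10 (0.0133), Dtx3l (0.0341) and Parp11 (0.0447) and adjusted p-values of 0.236, 0.321 and 0.351. Confidence intervals of 95% ran from 0.26 to 1.46 for Parp10, from -0.40 to 1.03 for Parp9 and from -0.80 to 2.87 for Parp14. For Parp1 the interval was -0.30 to 0.26. Groups were separate for Parp10, Dtx3l, Parp11 and Parp14, where 14.2% of all genes were higher at 48 h without overlap. Parp8 and Parp3 also lay higher and Parp2 lower at 48 h without overlap, the last against 33.7% of all genes.

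The gap between the member sets was taken on each array as the median log2 change of the 6 interferon-type members, Parp12 included, minus that of the 3 DNA repair members, which cancels a shift of a whole array. On the 24 h arrays it was 3.65 and 3.66, and on the 48 h arrays 4.33 and 4.91. The Control arrays, set against their own mean, gave -0.16 and 0.16. The mean gap was 3.65 ± 0.009 at 24 h and 4.62 ± 0.41 at 48 h (SD, n = 2), and the repair side of it was the value of Parp2 on every CSF-1 array. No test was made, since the sets were chosen genes. The SD leaves out the Control spread, and leaving out either Control array moved the 24 h gap to 3.39 or 3.92.

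**Figure D3:**
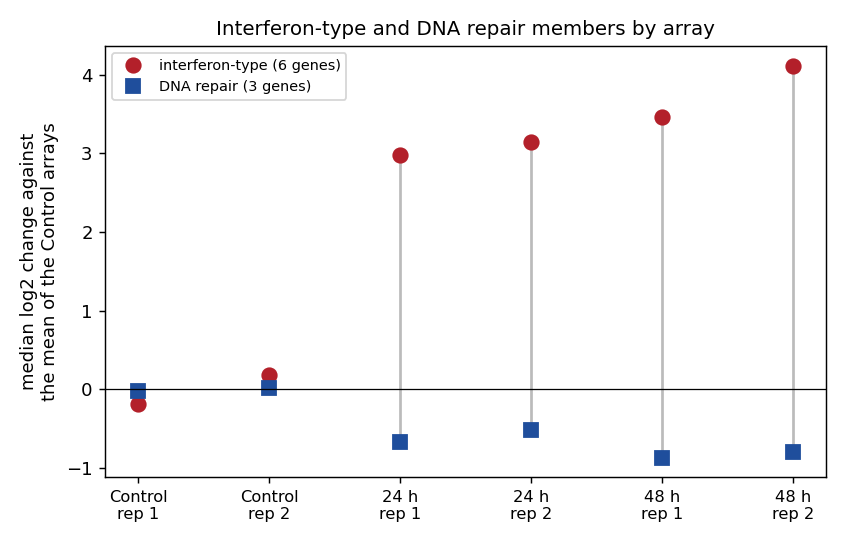
Median log2 change against the mean of the Control arrays (vertical axis) for each of the 6 arrays (horizontal axis), with circles for the 6 interferon-type members, squares for the 3 DNA repair members and grey lines for the gap. Circles reach 2.98 and 3.14 at 24 h and 3.47 and 4.11 at 48 h, while squares lie between -0.87 and -0.52 on the CSF-1 arrays.

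Of 7 other PARP family genes, 3 rose at 24 h and 1 at 48 h, with medians of 0.25 and 0.36. Beside the counts of this and the later lists, 8.02% of all genes tested rose and 5.99% fell at 24 h. At 48 h these shares were 6.58% and 7.38%. Parp4, the vault particle PARP, rose by 0.74 (adjusted p = 0.0295) and 0.94 (adjusted p = 0.0164). Tiparp, a target of the aryl hydrocarbon receptor, rose by 0.81 at 24 h (adjusted p = 0.0377) and read 0.66 at 48 h (adjusted p = 0.0601). Parp16, an endoplasmic reticulum member, rose by 0.61 at 24 h (adjusted p = 0.0332) and read 0.43 at 48 h (adjusted p = 0.0759). Among 3 other Deltex ligases tested, Dtx2 rose by 1.11 (adjusted p = 0.00926) and 0.84 (adjusted p = 0.0188), and Dtx4 fell by 1.40 at 24 h (adjusted p = 0.015) and read -0.71 at 48 h (adjusted p = 0.0806).

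Of 10 tested genes that remove or bind ADP-ribose, 0 passed at 24 h and 1 fell at 48 h. This was Oard1, listed on the array as AI314976, at -0.54 (adjusted p = 0.0448). An unadjusted limma p under 0.05 was reached by 2 at 24 h, 1 of them higher, and by 3 at 48 h, 0 higher. Among 12 genes of PARP1-dependent strand break repair, 2 fell at 24 h and 3 at 48 h, and the medians were -0.32 and -0.38. limma called 0 of them higher. At an unadjusted limma p under 0.05, 7 passed at 24 h, 1 of them higher, and 7 at 48 h, 0 of them higher. Over all 24643 genes tested, 7717 and 7611 passed that threshold. Tdp1, which frees DNA ends from trapped topoisomerase, fell by 0.66 and 0.84 on the log2 scale, Timeless fell by 0.54 at 24 h (adjusted p = 0.0397), and Apex1 and Chd1l fell by 0.50 and 0.48 at 48 h (adjusted p = 0.0473 and 0.0468). Of 10 tested genes of NAD+ synthesis and use, the substrate supply of PARPs, 1 rose and 2 fell at 24 h and 1 rose and 1 fell at 48 h. Nmnat2 rose by 1.83 and 1.77, Nmnat3 fell by 1.32 and 0.74, and Naprt1 fell by 0.55 at 24 h (adjusted p = 0.0445).

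**Figure D4:**
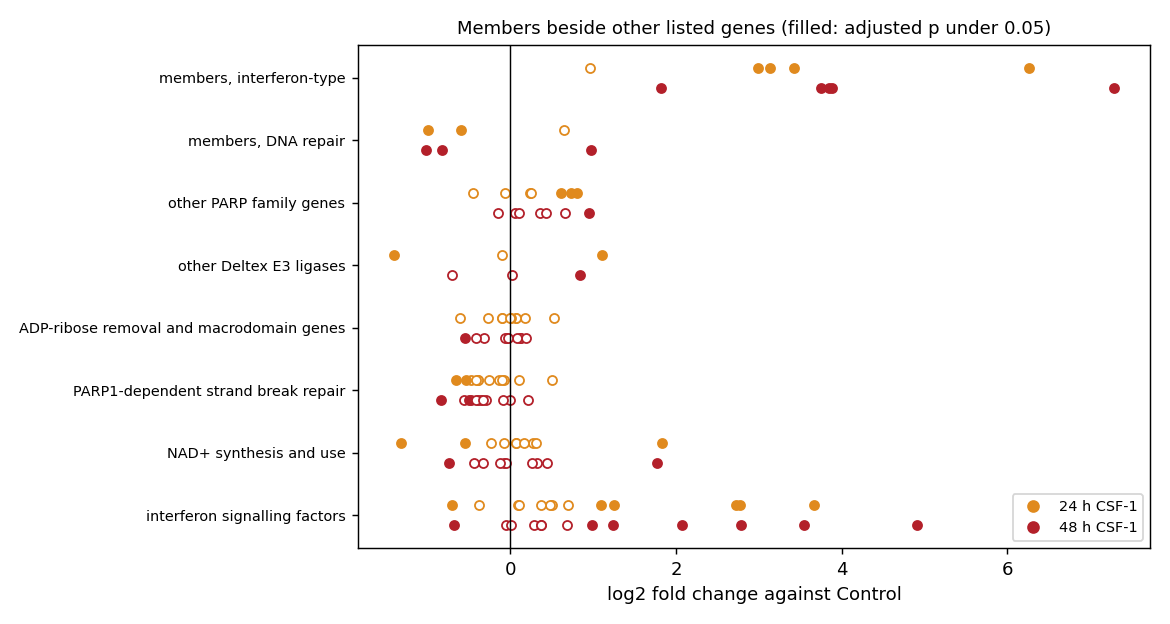
Log2 fold change against Control (horizontal axis) of every tested gene in the lists plotted (rows: the member sets, the lists of ADP-ribosylation, repair and NAD+ genes, and interferon signalling factors), at 24 h (orange) and 48 h (red), filled where the adjusted p was under 0.05. The interferon-type members and the interferon signalling factors reach beyond 2 on the right, up to 7.29 for Parp14 and 4.91 for Irf7 at 48 h, while the other rows plotted stay between -1.40 and 1.83.

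Interferon signalling factors carry the signal from interferon receptors to interferon-stimulated genes. Of 13 tested, 5 rose and 1 fell at 24 h, and 6 rose and 1 fell at 48 h, with medians of 0.50 and 0.68. Irf7, an inducible transcription factor of the response, rose by 3.67 and 4.91, Stat2 by 2.77 and 3.54, Irf9, its partner, by 2.73 and 2.79, and Irf1 by 1.25 and 2.08. The gene that fell was Ifngr1, a chain of the interferon gamma receptor, at -0.71 (adjusted p = 0.015) and -0.69 (adjusted p = 0.0172), named after its values were seen. Of 9 interferon ligand genes on the array, 5 were tested and 0 passed by limma at either time, with 0 at an unadjusted p under 0.05. Ifnb1, Ifng, Ifna4 and Ifne were well above background on 0 arrays, Ifnk on 3, and Ifna1, Ifna2, Ifna5 and Il28b on all 6, Control included.

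Outside the members, the tested genes whose profile over the 6 arrays was nearest to that of Parp9 were Trim12a, Casp4 and Samd9l, at root mean square distances of 0.128, 0.131 and 0.137 log2 units. For Dtx3l they were Tor3a, Samd9l and Dhx58, at 0.126, 0.13 and 0.149. For Parp14, Oasl2 was nearest at 0.146, followed by Irgm2 at 0.362 and Usp18 at 0.396. These were the nearest of 13839 candidate genes and are given as a description.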

How the data were processed

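Total RNA was labelled with Cy3 and read on mouse 60-mer arrays. The deposited scanner files hold the spot intensity made by the authors with Agilent Feature Extraction 11.0.1, already corrected for background, and a deposited series table holds log2 values that the authors normalized, used as an alternative. The intensity was taken to log2, each array's 75th percentile over non-control spots was subtracted, outlier spots were left out and repeated spots averaged. A gene took its brightest probe, and 24643 of 36028 genes passed a filter that asked for 1 group or more with its 2 arrays well above background. limma 3.58.1 in R 4.3.3 was fitted to all 6 arrays (residual df 3, prior df 2.392), 2-sided, with Benjamini-Hochberg adjustment and calls at 0.05, after a check on simulated data. Replicate numbers come from the sample titles.

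The members and lists were chosen with earlier results of these data known. All members were named, with up to 4 called genes of each other list by mean absolute change, and the 3 nearest profiles of Parp9, Dtx3l and Parp14. Alternatives changed the background correction, scaling, filter, probe rule, prior, samples in the fit, blocks and test. Few arrays limit the precision.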

Additional observations from a re-analysis of the deposited data

How the results depend on the processing

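Against Control, the direction of every tested member at 24 h and 48 h was the same under all settings run. Leaving out 1 array in turn left 5 to 7 members called at 24 h, 6 to 7 at 48 h and 0 to 0 between the times, with gaps between the sets of 3.39 to 3.92 and 4.33 to 4.91. A 2-sided Student t-test was also run, which the study names in its general statistics and not for the arrays. After Benjamini-Hochberg adjustment, added here, this t-test called 0 members at 24 h and 0 at 48 h, and 0 genes in any comparison. Before adjustment it passed 5402, 5484 and, between the times, 2585 genes, and 0 interferon ligands. At 24 h it passed 1 gene of ADP-ribose removal and 4 repair genes, 0 of them rising. With a 2-fold change added it called 5 and 6 members (1352, 1161 and 251 genes), and limma at that threshold 5 and 7 (1893, 1597 and 560). The 24 h gap was 3.69 with quantile normalization, 3.18 and 3.21 with normexp, and 3.42 over the mean of a gene's probes, and the 48 h gap was 4.02 and 3.99 with normexp. Between the times, Parp1 turned to 0.16 under median centring and to 0.06 without the second 24 h array, from -0.1 to 0.06 over all fits that left out 1 array, and Parp9 to -0.03 without the second 48 h array, from -0.03 to 0.66 over such fits. Genes called were 3453 and 3440 as reported, 1319 and 870 without the filter (6 and 6 members), 1078 and 2114 with slide as a block (6 and 7 members), 2114 at 48 h with only the arrays compared (7 members), 5477 at 48 h with a trended prior (9 members), and 899 at the fewest at 24 h and 889 at 48 h without 1 array. Median centring moved the median of all genes by -0.28 at 24 h and gave 1197 genes higher and 3705 lower, against 1977 and 1476. Replicate differences correlated between groups at 0.128, 0.094 and 0.199. With 2 arrays a group this cannot settle whether the numbers pair arrays, and the main fit did not pair them. The replicate block called 7, 9 and 0 members, with 3801 genes at 24 h and 3966 at 48 h. Between the times, normexp called 211 and 314 genes, the trended prior 195 and every other setting with adjusted limma 0 to 11. Asking for all 6 arrays well above background left Parp14 untested. The cause of these moves was not tested. Signal near background limits Parp12, Parp14 in Control and Parp11.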
